A study of Mus musculus with 9 samples.

Results

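The genes described here encode the proteins of the cytosolic ribosome. They were chosen by symbol: Rpl or Rps followed by a number and at most 1 letter, or Rplp0, Rplp1, Rplp2 and Rpsa, with a value above 0 in at least 3 of 9 libraries. Of 21989 gene symbols in the deposited table, 81 fitted the pattern and 80 met the rule, 49 of the large subunit and 31 of the small subunit. Rpl10l, an autosomal copy of Rpl10 known from testis, was listed at 0 in every library and was left out. At the edge of the rule stood Rpl32l, above 0 in 5 libraries and annotated as a processed pseudogene, and Rpl39l, also above 0 in 5 libraries. Poly-A RNA was sequenced from hearts of C57BL/6J mice, all male and 18 to 20 weeks old, in 3 groups of 3: a sham operation with distilled water (sham), TAC with distilled water (TAC), and TAC with Lingguizhugan decoction (LD), a Chinese herbal preparation. TAC is usually read as transverse aortic constriction, which loads the left ventricle with pressure, so all TAC and LD mice carry the same operation. By its title the study asks how the decoction acts in heart failure. No source used here gives the time between operation and collection, or the dose. The labels call the samples biological repeats.

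Each ribosome joins a small subunit, which decodes the mRNA, to a large subunit, which forms the peptide bond, and the ribosomal proteins hold the ribosomal RNA in shape, line the exit tunnel and bind the factors of translation. Their mRNAs are among the most abundant of most tissues, the heart included, and growth signals through mTOR are known to raise their translation by way of a pyrimidine tract at the 5′ end of the mRNA. Enlargement of the loaded heart is known to draw on new ribosomes and protein synthesis.

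A run of C and T at the start of the mRNA is what this class is known for, so the starts of genes on which the results below turn are shown here, with and without such a run. A script searched the RefSeq promoter table (GRCm38.p6; 60 of the 80 genes matched, with 72 listed starts) for a run of at least 5 bases, all C or T, that opens with C exactly at the annotated start, on the gene's own strand. Such a run stood at the start of 14 of 60 ribosomal protein genes (23.3%) and of 813 of 27025 promoters of all genes (3.01%). Allowing the run to open within 10 bases of the start gave 38 of 60 (63.3%) against 34.4% of all promoters. In the windows below, the run of C and T at the start is in capitals.
Rps18 (chr17:33955646-33955675, minus strand): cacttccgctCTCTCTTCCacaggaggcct
Rps10 (chr17:27635225-27635254, minus strand): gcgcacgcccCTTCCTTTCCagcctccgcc
Rpl15 (chr14:18270967-18270996, minus strand): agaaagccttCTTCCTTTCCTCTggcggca
Rplp2 (chr7:141447641-141447670, plus strand): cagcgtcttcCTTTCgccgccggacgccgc
Rps28 (chr17:33824543-33824572, minus strand): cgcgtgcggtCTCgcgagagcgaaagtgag
Rpl10a (chr17:28328461-28328490, plus strand): gcccccccagCggccgcaaactgcagcgcc
Rpl7a (chr2:26910797-26910826, plus strand): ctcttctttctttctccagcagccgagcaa
Rpl34 (chr3:130730318-130730347, minus strand): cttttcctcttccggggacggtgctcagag
Rplp0 (chr5:115559457-115559486, plus strand): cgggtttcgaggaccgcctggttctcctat
Rpl3l (chr17:24727816-24727845, plus strand): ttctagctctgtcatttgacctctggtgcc
The first 4 hold a counted run. Rps28 has 3 such bases at its annotated start, Rpl10a has 1, and Rpl7a, Rpl34, Rplp0 and Rpl3l, the muscle paralog of Rpl3, have none that open with C there. Of other genes described below, Rps2 has 1 and Rpl37 none. In Rpl7a and Rpl34 the annotated start is a T inside a longer run of C and T that opens upstream with C. Their runs are counted only where the run may open within 10 bases of the start. A match describes letters next to an annotated start and is no measured site.

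Expression was given as FPKM, the fragments of a gene scaled to its length in kilobases and to the total of the library. Fragment counts could be recovered from the steps of these values, and library totals lay between 7.43 and 18.1 M fragments, with TAC replicates 1 and 3 and LD replicate 1 the shallowest at 8.40, 8.96 and 7.43 M. The 80 genes took 10.3, 9.62 and 9.98% of all FPKM in sham replicates 1, 2 and 3. They took 12.0, 11.3 and 7.58% in TAC and 10.4, 12.3 and 10.9% in LD. Every LD library was therefore above every sham library in this share, while TAC replicate 3 was the lowest of the 9 and the other TAC libraries were above all sham libraries. In share of fragments, which is not scaled to length, LD replicate 1 (4.41%) lay below sham replicate 1 (4.44%). All 80 genes passed the filter for testing (3 or more libraries at an FPKM of 1 or above).

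Levels per kilobase ranged from a mean under 1 to 3782. The median gene had a mean FPKM of 489 over the 9 libraries, 20 genes were above 1000 and 73 above 100. Rplp1, an acidic protein of the stalk that recruits translation factors, had the highest mean at 3782. Rps14, a protein of the small subunit platform, followed at 2591, then Rpl41 at 2483, the stalk protein Rplp2 at 2137 and Rps15 at 2098. At the other end Rpl32l had a mean of 0.54, Rpl39l 0.94, Rps10 7.79, Rpl10a 22.2 and Rps15a 43.2. The levels of Rps10 and Rpl10a per kilobase were far below the median of the class. FPKM depends on the length the authors used, so part of the order between genes rests on those lengths. The length recovered for Rpl10a was 1893 bases against 729 for the annotated transcript used for its GC content. For Rps10 it was 1394 against 887. Of words of 75 bases, 87.6% in Rpl10a and 51.4% in Rps10 also occur in other genes. Exons of other genes overlap 28.7% of the exon length of Rps10. The part of each in these low levels was not tested.

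**Figure D1:**
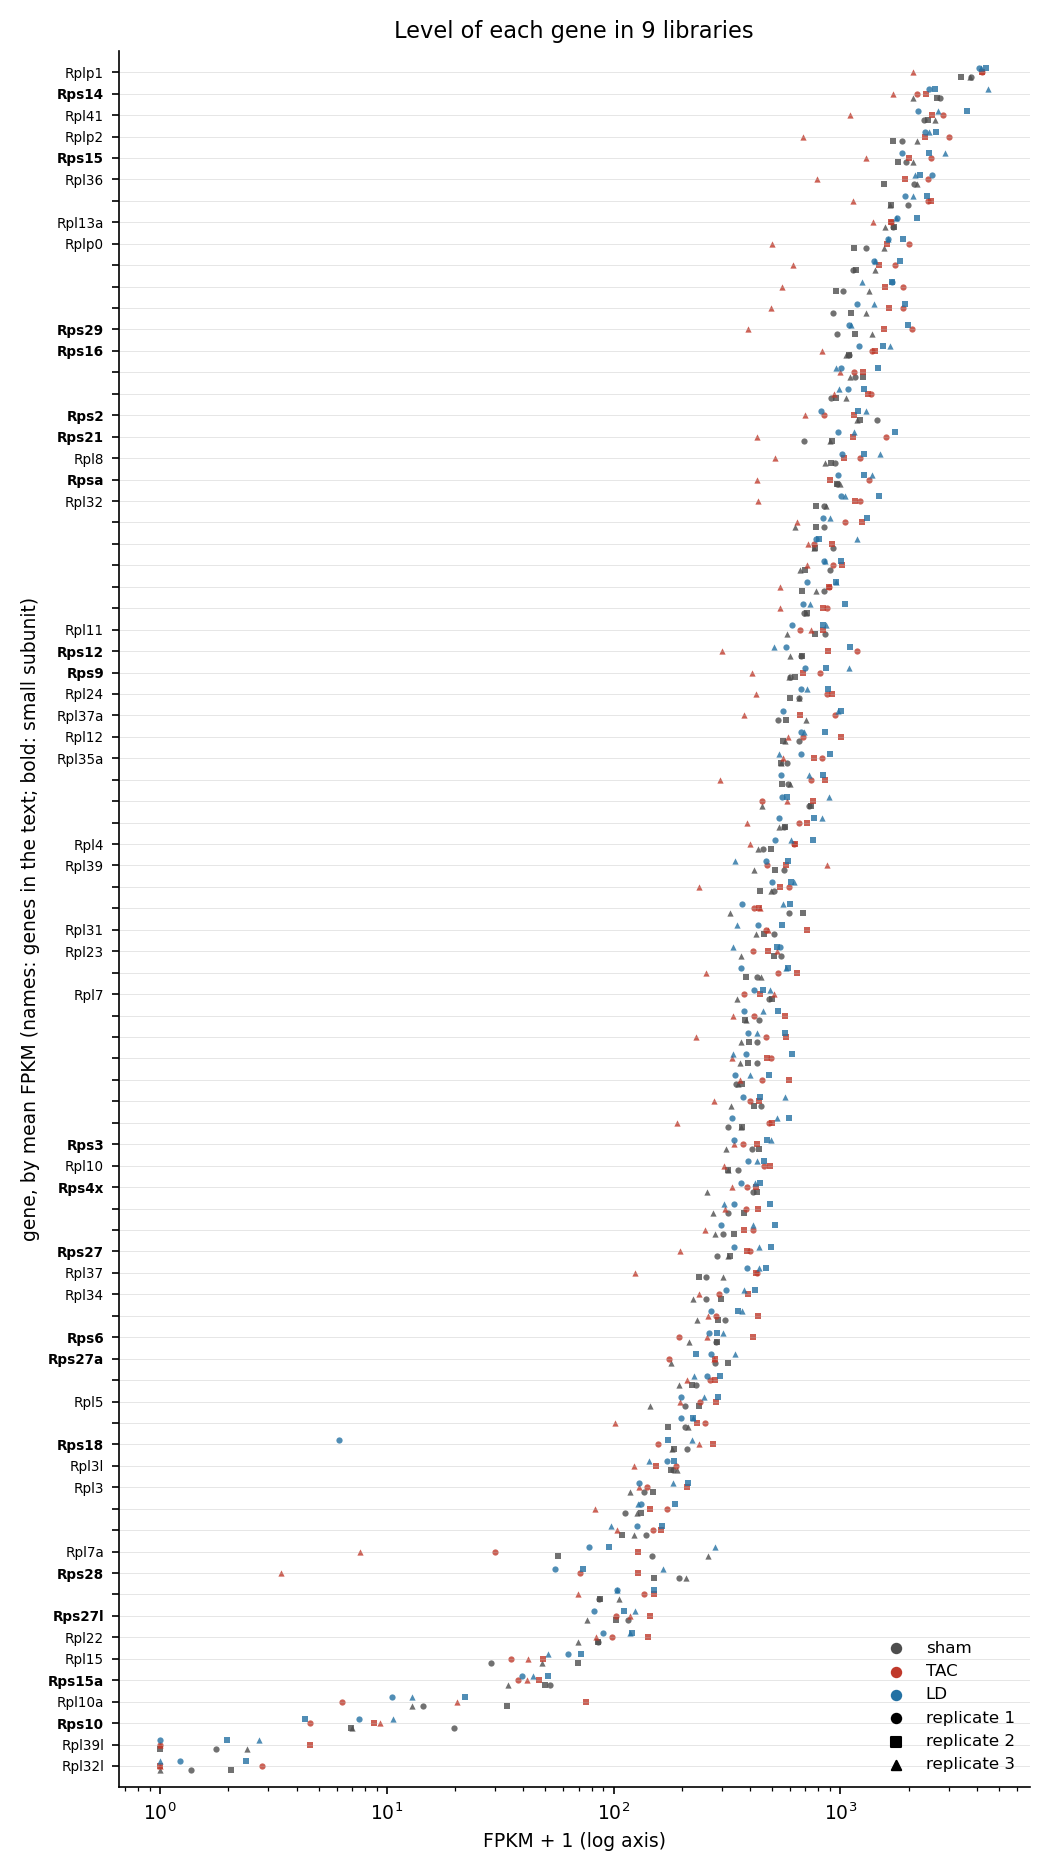
Level of each of the 80 ribosomal protein genes, as FPKM + 1 on a log axis, in the 3 sham (grey), 3 TAC (red) and 3 LD (blue) libraries, with 1 symbol shape per replicate number, genes ordered by mean FPKM and names only for genes that the text describes. Most genes lie above 100 FPKM, TAC replicate 3 (red triangle) is often the leftmost point, and single points of Rps18, Rps28 and Rpl7a lie far to the left of the rest of their row.

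The class moved together within libraries, and libraries of a group did not move alike. On the log2(FPKM + 1) scale, the median deviation from the sham mean over the 80 genes was 0.30 in TAC replicate 1, 0.31 in TAC replicate 2 and -0.38 in TAC replicate 3. In LD it was -0.01, 0.45 and 0.23 for replicates 1, 2 and 3, and in sham it lay between -0.06 and 0.06. Thus TAC replicates 1 and 2 and LD replicates 2 and 3 were high, LD replicate 1 was at the sham level, and TAC replicate 3 was low. Over all 11380 genes tested the same medians were 0.00, -0.02 and 0.08 in TAC and -0.01, -0.05 and -0.24 in LD.

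Both subunits showed the same order of libraries within each group. The large subunit genes had medians of 0.32, 0.36 and -0.41 in the TAC libraries, in the order of replicates 1 to 3, and 0.04, 0.47 and 0.21 in LD. The small subunit genes had 0.22, 0.26 and -0.38 in TAC and -0.04, 0.36 and 0.24 in LD. In each of these 6 libraries the subunit medians lay closer to each other than the highest and the lowest library of the group did.

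Counted gene by gene, 49 of 80 stood above the highest sham library in TAC replicate 1 (28.3% of all genes tested did) and 56 in TAC replicate 2 (27.4%), against 4 in TAC replicate 3 (38.9%). In LD the counts were 23 (24.0%), 61 (23.1%) and 51 (21.3%). In TAC replicate 3, 48 genes were below the lowest sham library (29.7% of all genes tested), and 63 were below both other TAC libraries (31.1%). LD replicate 1 was below both other LD libraries in 59 genes (25.5%). The deepest fall in TAC replicate 3, after the genes described as swinging below, was in Rps29 (log2 deviation -1.56), the stalk proteins Rplp2 (-1.48) and Rplp0 (-1.41), Rpl36 (-1.28), Rpsa (-1.18), which is also known as the laminin receptor, and Rpl41 (-1.17). Against that direction, Rpl39, a small protein of the exit tunnel, was higher there than in any other library (870 FPKM against 343 to 588; log2 deviation 0.82).

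**Figure D2:**
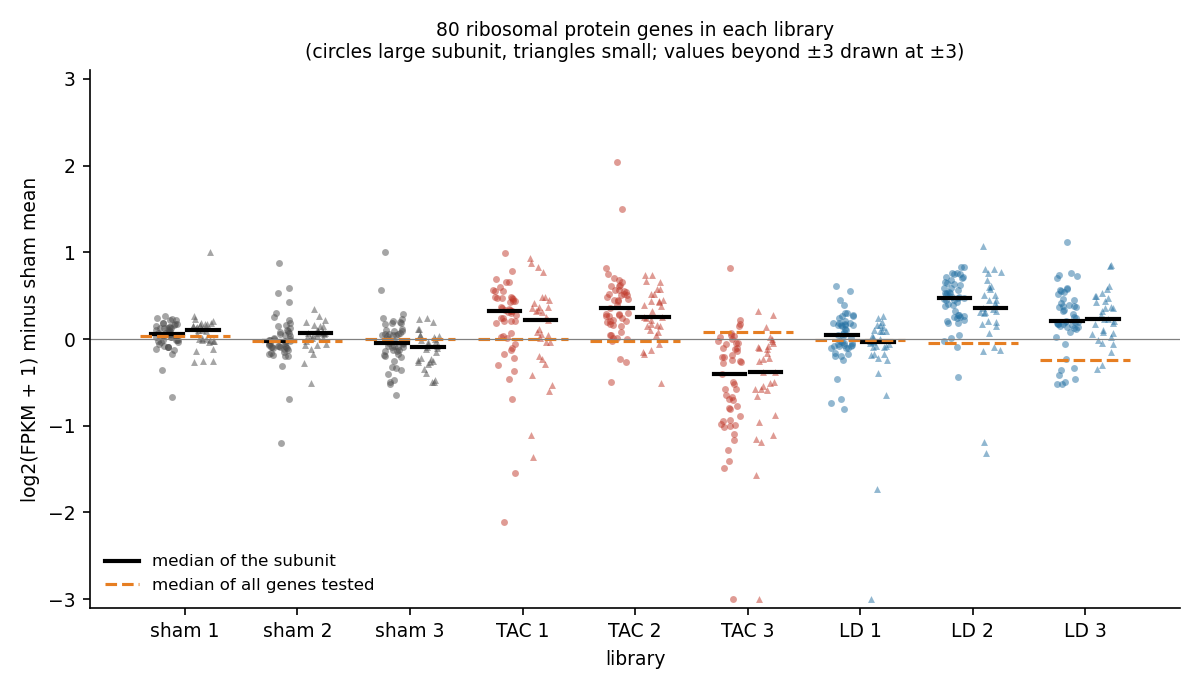
Difference of each of the 80 genes from its sham mean in each library, on the log2(FPKM + 1) scale, with circles for the large and triangles for the small subunit, black bars for subunit medians and an orange dashed line for the median of all genes tested. Both subunit medians lie above 0 in TAC replicates 1 and 2 and LD replicates 2 and 3, near 0 in LD replicate 1, and below 0 in TAC replicate 3.

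The comparison of TAC with sham addresses the operation. With limma on log2(FPKM + 1) and Benjamini-Hochberg adjustment over 11380 genes, 0 of 80 genes passed an adjusted p under 0.05 (0.0% of all genes tested). With voom on the recovered fragments 0 of 80 passed, against 4 of all genes tested. The moderated F test, which asks whether any of the 3 groups differed, called 0 of 80 as well, with 1 of 80 (Rpl7a) at an unadjusted p under 0.05 (6.76% of all genes tested). At an unadjusted p under 0.05, 0 genes were higher (2.85% of all genes tested) and 3 were lower (2.58%), namely Rps28, Rpl7a and Rps2. The count of lower genes was 1 without sham replicate 1, sham replicate 3 or TAC replicate 3, 2 without sham replicate 2 or LD replicate 2, and 3 without any other library. Over all 11380 genes tested, the counts were 177, 193 and 370, then 267 and 252, and 257 to 563 without any other library. The median log2 difference was 0.04, with 49 of 80 genes above 0 (50.0% of all genes tested). It was 0.04 for the large and 0.05 for the small subunit. Single genes ran from -2.54 to 0.40, so the few large differences were all on the lower side.

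TAC replicate 3 set this near-zero median. Without that library the median was 0.32, 67 of 80 genes were above 0, and 20 genes were higher at an unadjusted p under 0.05 (2.69% of all genes tested), with 1 lower (3.25%) and 0 past the adjusted threshold by limma. In the same 5 libraries, 43 genes were higher in both remaining TAC hearts than in all sham hearts (10.7% of all genes tested). With all 9 libraries no ribosomal protein gene was higher in TAC without overlap (5.22% of all genes tested), and 2 were lower (4.62%), Rps2 and Rps28.

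Rps2, which lines the mRNA entry channel, stood at 1447, 1214 and 1187 FPKM in sham and at 842, 1147 and 696 in TAC. All TAC libraries were below all sham libraries, the highest TAC value by a narrow margin. The log2 difference was -0.54 ± 0.25 (SE; limma adjusted p = 0.918). Of its 75-base words, 64.4% also occur in other genes (50 pseudogenes), so that the authors' counting could split its reads; the same holds for 84.9% of those of Rpl10. On the higher side, Rpl22, an RNA-binding protein of the large subunit, read 84.6, 84.0 and 68.5 in sham and 97.1, 140 and 82.6 in TAC. TAC replicates 1 and 2 were above sham and replicate 3 lay within it (0.40 ± 0.24, adjusted p = 0.974). Rpl35a (0.35 ± 0.24) and the peptidyl transferase neighbour Rpl10 (0.31 ± 0.22) were also among the 4 higher genes of smallest p, and their groups overlapped.

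The comparison of LD with TAC addresses the decoction, since both groups had the TAC operation. No gene passed the adjusted threshold by limma or voom (0.0% of all genes tested by limma). At an unadjusted p under 0.05, 1 gene was higher (2.51% of all genes tested), Rpl7a, and 0 were lower (6.31%). These counts hung on single libraries: without TAC replicate 1, 12 genes were higher (4.93% of all genes tested) and 2 lower (10.5%). The higher genes numbered 4 without TAC replicate 2, 3 without LD replicate 1, 2 without sham replicate 1 or LD replicate 2, and 0 without TAC replicate 3 or LD replicate 3. Over all 11380 genes tested, the numbers were 321, 344, 253, 207, 229 and 234 in the same order. The median difference was 0.18, with 66 of 80 above 0, beside a median of -0.10 over all genes tested, of which 39.6% were above 0. Scaling moved both: with library sums made equal the median of the 80 was 0.07 (49 above 0) and that of all genes -0.19, and with median-of-ratios scaling they were 0.33 (74 above 0) and 0.01. Without TAC replicate 3 the sign turned, with a median of -0.07 and 33 of 80 above 0. The comparison shares the TAC libraries with the one before, so the low replicate enters both.

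Without overlap, 3 genes were higher in LD than in TAC (3.73% of all genes tested) and 0 were lower (8.14%). Rps14 stood at 2172, 2392 and 1708 FPKM in TAC and at 2451, 2606 and 4490 in LD. LD replicate 3 alone lay far above the rest, and the nearest values of the groups were 2392 and 2451. The log2 difference was 0.56 ± 0.26 (adjusted p = 0.565). Rpl15, a core protein of the large subunit, read 34.4, 47.6 and 40.7 in TAC and 61.8, 70.7 and 50.1 in LD, and 27.9, 68.3 and 47.3 in sham. All LD values were above all TAC values, and sham covered nearly the whole span of both (0.56 ± 0.30, adjusted p = 0.585). Rpl13a, which interferon is known to release from the ribosome, had 1677, 1677 and 1385 in TAC and 1784, 2168 and 1766 in LD, again without overlap (0.27 ± 0.20, adjusted p = 0.671). Rps9 (0.51 ± 0.27) also had a small p among the higher genes, with overlapping groups. On the lower side, Rpl39 (-0.44 ± 0.27) and Rpl31 (-0.32 ± 0.24) overlapped too, and the Rpl39 difference was 0.012 once TAC replicate 3 and LD replicate 3 were both left out.

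LD against sham compares hearts with TAC and the decoction with sham-operated hearts given distilled water. Here 0 of the 80 genes passed the adjusted threshold by limma or voom (of all genes tested, 0.0% by limma and 3 genes by voom). At an unadjusted p under 0.05 there was 1 higher (1.52% of all genes tested), Rpl34, and 0 lower (3.59%). Without TAC replicate 3, which enters only through the shared spread, 11 were higher (2.17% of all genes tested) and 1 lower (4.72%). The higher genes numbered 4 without LD replicate 1, 2 without sham replicate 2, and 0 without sham replicate 1, sham replicate 3, TAC replicate 1, LD replicate 2 or LD replicate 3. Over all 11380 genes tested, the numbers were 227 and 156, then 133, 142, 210, 148 and 160 in the same order. The median difference was 0.23, with 68 of 80 above 0 (37.2% of all genes tested), 0.26 for the large and 0.20 for the small subunit, beside -0.11 over all genes. It was 0.14 with equal sums, where all genes had -0.18, and 0.35 with median-of-ratios scaling, where all genes had -0.01. Leaving out each library in turn kept it between 0.17 and 0.33.

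In this comparison 17 of 80 genes were higher in every LD library than in every sham library (4.47% of all genes tested) and 0 were lower (8.76%). They included the 3 stalk proteins Rplp0, Rplp1 and Rplp2, and Rpl4, Rpl8, Rpl10, Rpl12, Rpl13a, Rpl22, Rpl24, Rpl32, Rpl34 and Rpl37 of the large subunit. The small subunit gave Rps9, Rps16, Rps21 and Rps27. Without LD replicate 1, the library at the sham level, 41 genes did not overlap (10.3% of all genes tested). Without LD replicate 2 the count was 17 (7.4%), and without LD replicate 3 it was 23 (9.32%). When limma was given weights for library quality, 42 genes were higher at an unadjusted p under 0.05 (7.42% of all genes tested) and 2 were lower (12.0%). By adjusted p 0 of the 80 passed, against 135 of all 11380 genes tested. LD replicates 1, 2 and 3 were weighted 0.74, 4.74 and 0.40, so the LD means rested mostly on replicate 2. TAC replicate 3 was weighted 0.39.

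Among these genes Rpl34 had the smallest p. Its FPKM was 254, 298 and 222 in sham, 290, 390 and 236 in TAC, and 311, 421 and 375 in LD. All LD libraries were above all sham libraries and TAC covered the middle. The difference was 0.52 ± 0.24 (95% interval 0.00 to 1.03; adjusted p = 0.875). Rpl37, a zinc-binding protein of the large subunit, read 253, 238 and 304 in sham and 387, 469 and 438 in LD. The groups were well apart, and TAC held 428, 422 and 123, so replicates 1 and 2 of TAC were as high as LD (LD against sham 0.70 ± 0.38, adjusted p = 0.875). Rps9, whose sham values were close together at 598, 632 and 594, read 694, 865 and 1094 in LD (0.52 ± 0.27, adjusted p = 0.875). Rpl22, at 88.9, 119 and 117 in LD, was above sham in each library by a margin that was small for replicate 1.

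The stalk proteins form the flexible arm of the large subunit that recruits elongation factors, with Rplp0 as the base to which Rplp1 and Rplp2 bind. Rplp0 stood at 1296, 1150 and 1552 FPKM in sham, 2011, 1607 and 499 in TAC, and 1625, 1891 and 1621 in LD. Rplp1 stood at 3780, 3394 and 3742 in sham, 4198, 4203 and 2098 in TAC, and 4067, 4390 and 4169 in LD. Rplp2 stood at 1870, 1704 and 2168, then 3014, 2351 and 680, then 2351, 2629 and 2464 in the same order. All 3 had the same pattern: TAC replicates 1 and 2 and every LD library lay above every sham library, and TAC replicate 3 lay far below. LD against sham gave 0.37 ± 0.39 for Rplp0, 0.21 ± 0.26 for Rplp1 and 0.38 ± 0.41 for Rplp2, all with an adjusted p above 0.9 by limma.

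A pair of small subunit genes swung widely between replicates. Rps21, a small protein of the solvent side, stood at 686, 920 and 895 FPKM in sham, 1583, 1130 and 426 in TAC, and 975, 1742 and 1151 in LD. Rps12, of the small subunit head, stood at 672, 678 and 596, then 1188, 880 and 301, then 572, 1099.6 and 508. In both genes TAC replicate 1 was the highest TAC library, TAC replicate 3 the lowest of all 9, and LD replicate 2 the highest LD library. In LD replicate 3, Rps12 went against the class, with a deviation from sham of -0.35 where the class had a median of 0.23. Rps21 had LD above sham without overlap (0.60 ± 0.39, adjusted p = 0.875). For Rps12 the LD against sham difference was 0.08 with an interval from -0.82 to 0.98.

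LD replicate 3 had its own order of genes. Its highest deviations from sham, after Rpl7a, were Rps14 (0.86), Rps9 (0.85), Rpl39l (0.76), Rpl8 (0.73), Rpl37 (0.73) and Rpl37a (0.70). Rpl8, a protein near the peptidyl transferase centre, read 1010.3, 1266 and 1500.3 in LD against 947, 907 and 852 in sham, so that every LD library was above sham and replicate 3 the highest (0.46 ± 0.29, adjusted p = 0.875). At the low end of that library were Rpl39 (-0.52), Rpl10a (-0.52), Rpl32l (-0.50), Rpl23 (-0.46), Rpl31 (-0.41) and Rpl3l (-0.36). Rpl39 and Rpl23 thus lay among the lowest in LD replicate 3 and among the highest in TAC replicate 3, where Rpl23 deviated by 0.18 and Rpl7 by 0.22. Rpl23 stood at 547, 506 and 362 FPKM in sham, 411, 480 and 526 in TAC and 538, 526 and 336 in LD, and its groups had nearly equal levels (LD against sham -0.025 ± 0.25).

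Rpl5 and Rpl11, which carry the 5S ribosomal RNA and are known to bind the p53 regulator MDM2 when ribosome assembly fails, had overlapping groups. Rpl5 averaged 195 ± 46.7 (SD, n = 3) in sham, 239 ± 43.2 in TAC and 244 ± 45.1 in LD, with log2 differences from sham of 0.31 ± 0.25 (SE) in TAC and 0.34 ± 0.25 in LD. Rpl11 averaged 735 ± 141, 747 ± 88.4 and 772 ± 140, and its LD against sham difference of 0.07 had an interval from -0.42 to 0.57. Rps6, the substrate of S6 kinase, averaged 260 ± 40.3, 287 ± 111 and 284 ± 20.9. The intervals leave room for changes in either direction in these 3 genes. Rpsa averaged 977 ± 17.8 in sham, 885 ± 451 in TAC and 1209 ± 208 in LD, with a TAC range from 429 to 1330.

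Genes that swung between replicates were ranked by the pooled within-group SD of log2(FPKM + 1). The median over the 80 genes was 0.352, against 0.371 over all genes tested, and 60 genes were at 0.5 or less. Rpl13a was the steadiest at 0.14. A few were far outside: 4 of 80 (5%) had an SD above 1, which 106 of all genes tested (0.931%) had. They were Rps28 (1.69), Rps18 (1.69), Rpl7a (1.46) and Rpl10a (1.17), followed by Rpl39l (0.93), Rps29 (0.81), Rps10 (0.71) and Rps12 (0.70).

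Rps28 (chromosome 17, 33819027 to 33824562, GRCm38), a small protein near the mRNA exit site, stood at 194, 150 and 208 FPKM in sham. It stood at 70.3, 128 and 2.43 in TAC and at 54.2, 72.6 and 164 in LD. All TAC libraries were below all sham libraries, and TAC replicate 3 held only 30 fragments. The TAC against sham difference was -2.54 ± 0.93 (adjusted p = 0.793), the lowest of the 80. The exons of Kank3 on the opposite strand overlap 5.12% of its exon length, and those of Vps52 overlap 6.36% of that of Rps18, described next. No strand-marking step is named in the labels, so it is not known whether reads of such pairs were told apart. The part of the overlaps in these values was not tested.

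Rps18 (chromosome 17, 33951999 to 33956001), part of the small subunit head, was steady in 8 libraries and almost missing in 1. It read 210, 183 and 180 in sham, 156, 273 and 238 in TAC, and 5.14, 173 and 220 in LD, where replicate 1 had 80 fragments. The LD against sham difference of -1.63 ± 0.93 became 0.038 without LD replicate 1. That single library thus carried the largest negative differences of LD, also against TAC (-1.81 ± 0.93, adjusted p = 0.583).

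Rpl7a (chromosome 2, 26910764 to 26913318), a core protein of the large subunit, varied in every group. It read 146, 55.7 and 260 in sham, 29.0, 127 and 6.60 in TAC, and 76.6, 94.5 and 280 in LD. The groups overlapped, with the lowest value in TAC replicate 3 (67 fragments) and the highest in LD replicate 3. The differences were -2.08 ± 0.81 for TAC against sham (adjusted p = 0.829) and 2.05 ± 0.81 for LD against TAC (adjusted p = 0.537), the highest LD against TAC difference of the 80. Sham and LD had nearly equal means, 154 ± 102 and 150 ± 113 (SD, n = 3).

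Rpl10a (chromosome 17, 28328471 to 28331033), which sits on the mobile L1 arm, ran from 5.34 in TAC replicate 1 to 74.8 in TAC replicate 2. The sham values were 13.4, 32.8 and 11.9, TAC replicate 3 was 19.4, and LD had 9.53, 21.1 and 11.9. Here replicate 2 was the highest of each group, and no group stood apart. Rps10 read 18.8, 5.98 and 6.02 in sham, 3.59, 7.81 and 8.32 in TAC and 6.57, 3.33 and 9.65 in LD. Only sham replicate 1 stood above 10, and the LD against sham difference of -0.49 ± 0.45 was 0.0088 without it. Rps29, an abundant zinc-binding protein, read 967, 1162 and 1371 in sham, 2059, 1552 and 390 in TAC, and 1095, 1982 and 1116 in LD. It followed the class instead in TAC and in LD replicates 1 and 2. In LD replicate 3, where the class was high, it stayed within its sham range.

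**Figure D3:**
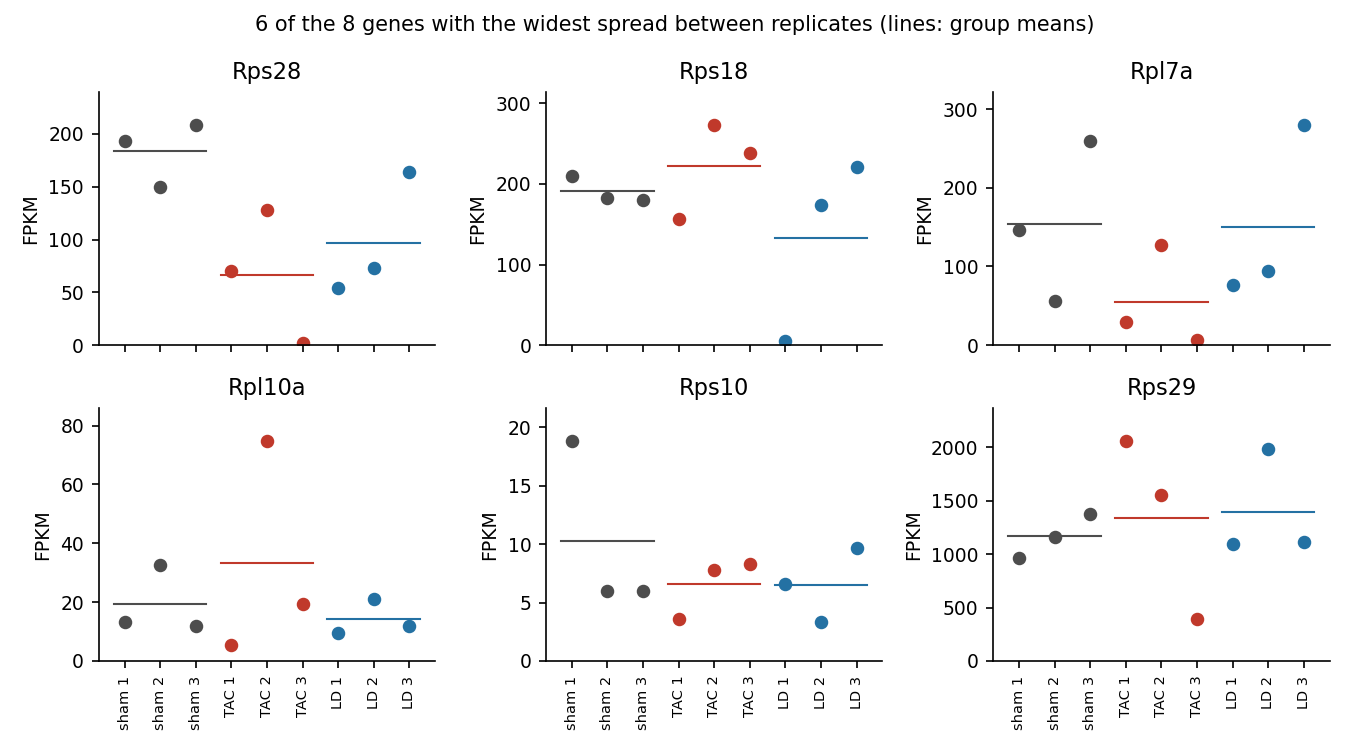
FPKM of Rps28, Rps18, Rpl7a, Rpl10a, Rps10 and Rps29 in each of the 9 libraries (points; sham grey, TAC red, LD blue), with a line at each group mean and axes that start at 0. Rps18 falls to 5.14 in LD replicate 1 alone, Rps28 to 2.43 in TAC replicate 3, and Rpl10a rises to 74.8 in TAC replicate 2 alone.

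Most ribosomal protein genes share sequence with other genes, the swinging ones among them. Of the 80 genes, 76 shared at least 1 word of 75 bases with another annotated gene, with a median of 43.1% of words shared, so that the authors' counting could split or drop their reads. The shared part was 45.9% in Rps28 (with 5 genes), 77.8% in Rps18 (9 genes), 77.4% in Rpl7a (64 genes, all pseudogenes), 87.6% in Rpl10a (4 genes) and 30.7% in Rps29 (2 genes). Across the 80 genes, however, the SD had a Spearman correlation of 0.07 with the shared part. Genes are not independent replicates, and the part of shared reads in the swings was not tested. Rpl3l, Rpl39l and Rps3 were among those that shared no such word.

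Rpl3 and Rpl3l are a pair in which the muscle form can take the place of the common one at the peptidyl transferase centre. Rpl3l (chromosome 17, 24727820 to 24736143) stood at 181, 177 and 190 FPKM in sham, 187, 152 and 122 in TAC and 170, 184 and 142 in LD. Rpl3 (chromosome 15, 80077791 to 80091868) stood at 136, 149 and 117 in sham, 140, 210 and 129 in TAC and 129, 211 and 182 in LD. Rpl3l was above Rpl3 in all sham libraries and in replicate 1 of TAC and of LD, and below it in replicates 2 and 3 of both. This order rests on the gene lengths: the length recovered for Rpl3l was 2936 bases against 1375 for its annotated transcript, and that of Rpl3 was 1541 against 1351. With the annotated lengths, an alternative chosen after seeing the data, Rpl3l was above Rpl3 in all 9 libraries. The difference in TAC against sham was -0.27 ± 0.22 for Rpl3l (adjusted p = 0.997) and 0.23 ± 0.26 for Rpl3 (adjusted p = 0.999).

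The log2 ratio of Rpl3l to Rpl3, in which library scaling cancels, was 0.42, 0.25 and 0.69 in sham, 0.42, -0.46 and -0.08 in TAC, and 0.40, -0.20 and -0.35 in LD. The groups overlapped through replicate 1 of TAC and of LD. Means were 0.45 ± 0.22 (SD, n = 3), -0.04 ± 0.44 and -0.05 ± 0.40. In exact two-sided permutation tests over libraries, TAC and LD each differed from sham with p = 0.2 (differences of -0.49 and -0.50; adjusted p = 0.3 over 3 comparisons), and LD from TAC with p = 0.9 (difference of -0.01). With 3 against 3 the smallest p is 0.1. At the annotated lengths the ratios ran from 0.44 in TAC replicate 2 to 1.60 in sham replicate 3, with differences from sham of -0.50 in both TAC and LD (exact permutation p = 0.2 for each). The level of Rpl3 is less certain than that of Rpl3l, since 83.2% of its words are shared with other genes.

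**Figure D4:**
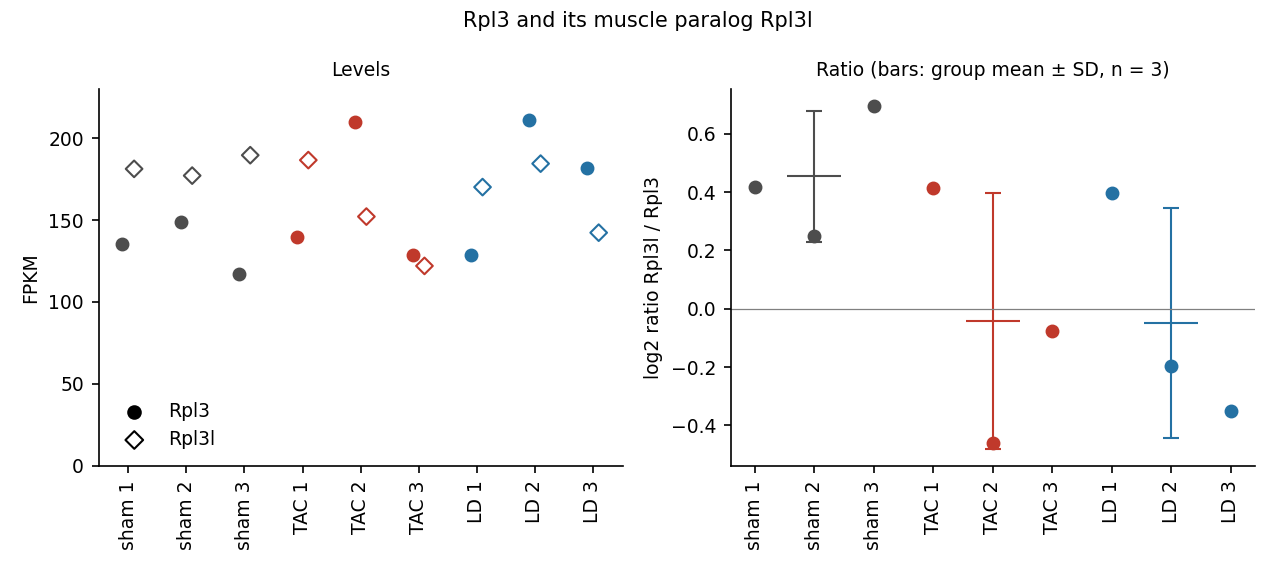
Left, FPKM of Rpl3 (filled circles) and Rpl3l (open diamonds) in each library, axis from 0; right, their log2 ratio by library with group mean and SD (n = 3). The ratio is above 0 in the 3 sham libraries and in replicate 1 of TAC and LD, and below 0 in the other 4 libraries, on the lengths recovered from the deposited values. At annotated transcript lengths all 9 ratios are above 0.

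Other paralog pairs were unequal in level. Rpl39 averaged 496 ± 75.7 (SD, n = 3) in sham, 640 ± 206 in TAC and 467 ± 123 in LD, while Rpl39l read 0.770, 0 and 1.41 in sham, 0, 3.60 and 0 in TAC, and 0, 0.965 and 1.74 in LD. Rpl39l was thus at 0 in 4 libraries, in which 3 fragments of a gene of 1 kilobase would have given an FPKM of between 0.207 and 0.404. Rps27 averaged 309 ± 22.0, 326 ± 113 and 423 ± 78.4, and its p53-inducible paralog Rps27l 97.2 ± 20.3, 120 ± 21.3 and 105 ± 21.7. Rps27 followed the class, with 195 in TAC replicate 3 against 397 and 386 in the others, whereas Rps27l read 101, 143 and 117 there, all within or above its sham range of 75.1 to 115. Rps4x, the X-linked form of a small subunit protein, averaged 365 ± 95.0, 381 ± 47.7 and 407 ± 38.4, and Rps4l is not analysed here. Rps27a, made as a fusion with ubiquitin, averaged 259 ± 73.1, 243 ± 59.8 and 279 ± 55.9.

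The depth of the fall in TAC replicate 3 went with base composition. Across the 80 genes, the Spearman correlation of transcript GC content with the deviation from the mean of all 9 libraries was -0.37 in TAC replicate 3. It was of like size and opposite sign in sham replicate 3, at 0.39, and between -0.12 and 0.23 in the other 7 libraries. Over the 11029 genes with a GC value it was -0.41 in TAC replicate 3, 0.34 in LD replicate 2, 0.26 in sham replicate 3 and between -0.19 and 0.19 in the others. GC content was not the only property to vary with the deviation. Across the 80 genes, the correlation with recovered length was 0.29 in TAC replicate 3, -0.31 in TAC replicate 1 and -0.27 in LD replicate 2. It lay between -0.10 and 0.19 in the others. By classes of GC content, the median deviation of the 80 genes from the sham mean in TAC replicate 3 was -0.11 in 27 genes of 41.3 to 49.3% GC, -0.56 in 26 genes of 49.4 to 53.1% GC and -0.59 in the 27 genes above that, up to 60.8% GC. The class of lowest GC was nearest to the sham level. After each library's dependence on GC content was subtracted, an alternative chosen after seeing the data, the median differences over the 80 genes were 0.05 for TAC against sham, 0.16 for LD against TAC and 0.19 for LD against sham. The part of RNA quality or library preparation in this pattern was not tested.

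**Figure D5:**
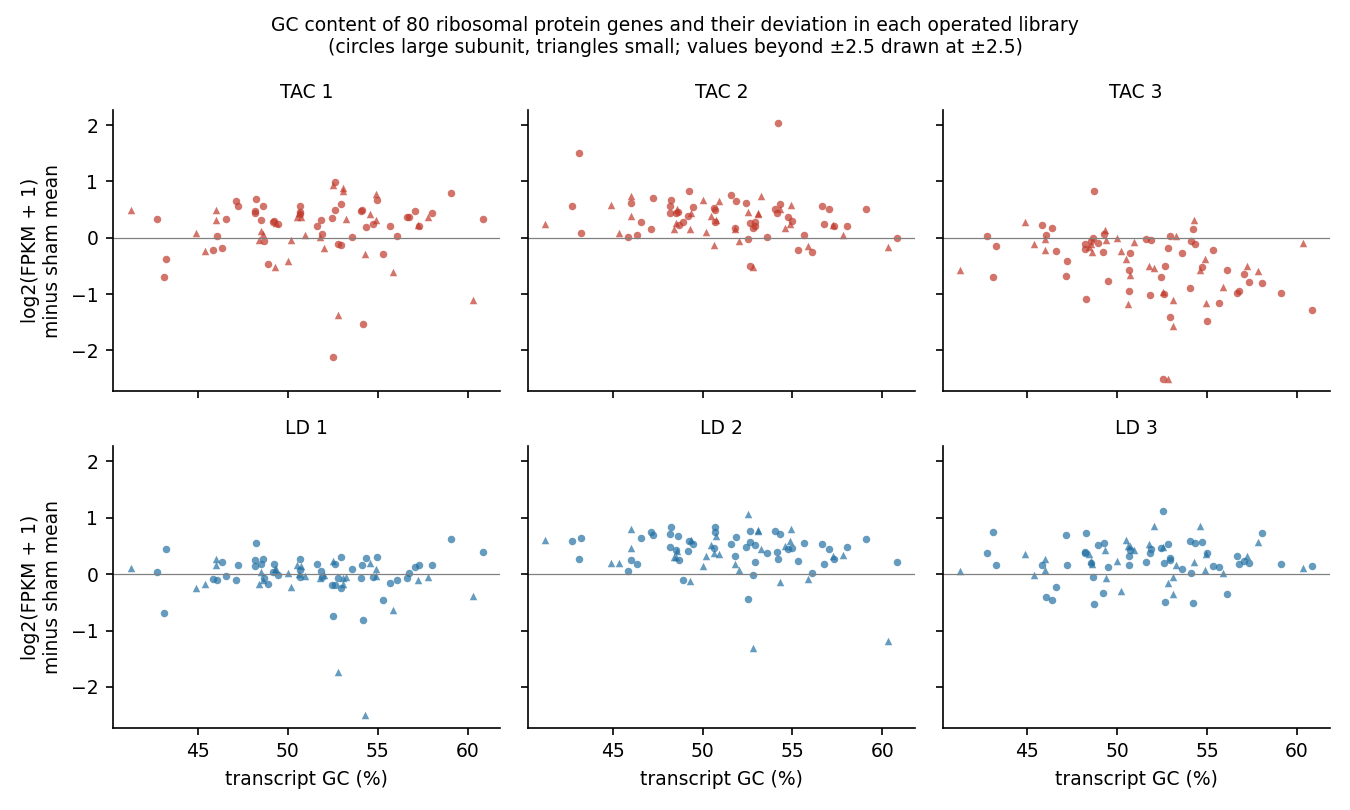
Deviation of each of the 80 genes from its sham mean on the log2(FPKM + 1) scale against transcript GC content, in the 6 TAC and LD libraries. Circles mark the large and triangles the small subunit. In TAC replicate 3 the points lie lower toward higher GC, with medians of -0.11, -0.56 and -0.59 in the classes of low, middle and high GC content.

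Ribosomal proteins outside the symbol rule followed the class in part. Fau, a ubiquitin-like fusion with a small subunit protein, stood at 1000.3, 917 and 850 FPKM in sham, 1139, 1166 and 508 in TAC and 955, 1209 and 1071 in LD. It was high in TAC replicates 1 and 2 and low in TAC replicate 3, as the class was. Rack1, a scaffold on the small subunit, read 12.4, 18.1 and 15.8 in sham, 23.4, 60.5 and 14.1 in TAC and 17.0, 19.3 and 45.3 in LD, with single high values in TAC replicate 2 and LD replicate 3. Rps3a1 did not fall in TAC replicate 3, at 501 against 395 to 584 in sham. There the 10 ribosome-bound partners and near paralogs outside the symbol rule had a median deviation from sham of -0.07. The 80 genes had -0.38.

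Lists of the wider translation machinery, chosen with earlier results known, are described with no test. In TAC replicate 3 the initiation factors (37 of 37 tested) had a median deviation of 0.22 and the list called elongation (15 of 18 tested) 0.15. The ribosome biogenesis factors (58 of 60 tested) had 0.04, and all genes tested had 0.08. Besides elongation factors, the list called elongation holds the initiation factor Eif5b, and Pabpc1, Tpt1, Gspt1 and Gspt2. In each of the 3 comparisons, 0 genes of these lists passed the adjusted threshold in limma, with the counts at an unadjusted p under 0.05 given below. In TAC against sham, the medians were 0.13 for elongation (1 gene higher at an unadjusted p under 0.05, 0 lower), 0.06 for initiation (0 and 0) and 0.06 for biogenesis (1 and 1). Eef1a1, which delivers aminoacyl-tRNA, had the smallest p of the elongation list and stood at 496, 579 and 497 FPKM in sham against 821, 778 and 646 in TAC. All TAC libraries, replicate 3 included, were above sham (0.51 ± 0.24, adjusted p = 0.918). Eef2, the translocation factor, read 651, 757 and 803 in sham and 1003, 836 and 416 in TAC, and so was low in replicate 3. Eef1g and Eef1d, subunits of the exchange factor of Eef1a1, were also lowest of the 9 libraries there, at 119 against 128 to 149 in sham and at 99.2 against 109 to 128.

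In LD against TAC, the medians were -0.17 for elongation (0 higher and 0 lower at an unadjusted p under 0.05), 0.00 for initiation (0 and 3) and -0.11 for biogenesis (1 and 3). Lsg1, a GTPase of late large subunit maturation, was the higher gene of the last list (1.01 ± 0.23, adjusted p = 0.366) and the lower gene of it in TAC against sham (-0.72 ± 0.23, adjusted p = 0.772). Regulators such as mTOR pathway genes, Larp1 and Myc (19 of 20 tested) had medians of -0.04 in TAC against sham, -0.21 in LD against TAC and -0.11 in LD against sham, with 0 past the adjusted threshold and 1, 1 and 3 lower at an unadjusted p under 0.05. In LD against sham, the elongation list had 0 genes at that p, the initiation list 1 lower and the biogenesis list 1 higher. Ribosomal protein genes had higher medians in the LD comparisons than any of these 4 lists, a description with no test. This was not particular to the 80 genes. The 10 ribosome-bound partners and near paralogs outside the symbol rule had medians of 0.16 in LD against TAC and 0.25 in LD against sham. The 80 genes had 0.18 and 0.23.

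In whole tissue, fewer cells of a type and less RNA per cell cannot be told apart. The summed FPKM of 14 ventricular myocyte markers, none of them at 0, was 53658 to 56704 in sham, 41784 to 54539 in TAC and 54757 to 84887 in LD, with TAC replicate 3 the lowest and LD replicate 3 the highest. Their medians in replicates 1, 2 and 3 were 0.06, -0.08 and -0.24 in TAC and -0.04, 0.04 and 0.36 in LD. The ribosomal protein genes had -0.01, 0.45 and 0.23 in LD. In LD against TAC the myocyte median difference was 0.26, with 6 of 14 higher at an unadjusted p under 0.05 (2.51% of all genes tested). In TAC against sham 2 of 14 were lower (2.58%). The summed FPKM of 12 fibroblast markers, none at 0, was 991 to 1182 in sham, 1569 to 2513 in TAC and 1123 to 1741 in LD. In TAC the fibroblast medians were 0.08, 1.18 and 1.10 for replicates 1, 2 and 3, an order that the ribosomal protein genes (0.30, 0.31 and -0.38) did not share. Of the 12 fibroblast markers, 7 were higher in TAC than in sham at an unadjusted p under 0.05 (2.85% of all genes tested). In LD against TAC 3 were lower (6.31%). By limma's adjusted p, 0 myocyte and 0 fibroblast markers passed. The 8 erythroid markers summed to 516 to 3344.5 in sham, 2239 to 11063 in TAC and 1205 to 2276 in LD, with up to 2 of them at 0 in a library. Of the 6 tested, 3 were higher in TAC than in sham and 2 lower in LD than in TAC at an unadjusted p under 0.05, and 0 by limma's adjusted p, with medians of 1.37 and -1.24. Their highest sum was in TAC replicate 2 and their medians in TAC were 0.89, 2.81 and 0.18, where the ribosomal protein genes had 0.30, 0.31 and -0.38. The 6 atrial myocyte markers summed to 80.3 to 114 in sham, 113 to 487 in TAC and 182 to 570 in LD, with Bmp10 at 0 in all 9 libraries. The 12 macrophage markers, none at 0, summed to 287 to 446, 328 to 479 and 290 to 426. T and NK cell markers summed to at most 6.80 FPKM in any library, with Cd2 at 0 in 8 of 9 libraries. The part of cell composition in the ribosomal protein differences was not tested.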

How the data were processed

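Per the labels' protocols, RNA of heart tissue was selected with poly-T beads and primed with random hexamers. Per the submitters' processing notes, the tools were CASAVA 1.8, fastp 0.20.0, HISAT2 2.1.0, Cufflinks 2.2.1, HTSeq 0.7.2 and DESeq, on GRCm38. The role of each tool and the annotation were not stated. The authors deposited 1 table of FPKM values, 1 column per library. Whole fragments were recovered from the steps of these values within 0.001 for 16262 of 16262 genes above 0, which gave library totals and gene lengths. Counting error only is covered by these fragment numbers.

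Values were analysed as log2(FPKM + 1), which understates changes of low genes. Genes reaching an FPKM of 1 in 3 or more of the 9 libraries (11380, all 80 described genes among them) were fitted with limma 3.58.1 in R 4.3.3: 3 group means, 6 residual degrees of freedom, empirical Bayes with trend, two-sided moderated tests, Benjamini-Hochberg adjustment. The script was tested on simulated data. Errors are limma's standard errors or SDs over 3 libraries. GC content, coordinates, exon overlaps and shared 75-base words come from GENCODE M21, start windows from RefSeq. The exact tests used Python 3.11.15 and scipy 1.17.1.

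The genes and lists were chosen with earlier results of these data known. Named genes were, in each comparison, the 4 of smallest p in each direction, the 8 of largest SD, the 5 of highest and lowest mean, and a fixed set of paralogs, stalk proteins and regulators. From each list described, genes were named among the 3 of smallest p. Genes that did not overlap between groups, that were lowest in a library or that lie outside the symbol rule were named after their values were seen, as were Eef2, Eef1g, Eef1d, Cd2 and Bmp10. Alternatives changed the pseudocount, filter, scaling, weights, GC content, gene lengths of Rpl3 and Rpl3l and test, and left out libraries. A few genes that these rules name are not reported here.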

Additional observations from a re-analysis of the deposited data

How the results depend on the processing

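Across the pseudocount, the filter, both scalings, voom, library weights, the replicate block, GC correction and every left-out library, 0 of the 80 genes passed the adjusted threshold in any comparison. Over all genes tested, some passed in some settings. With library weights 135 passed in LD against sham and 9 in TAC against sham. In every other setting at most 13 passed, in TAC against sham without TAC replicate 1. The median over the 80 genes in TAC against sham was 0.32 without TAC replicate 3, alone or together with LD replicate 3, and leaving out single libraries gave -0.11 to 0.32. Over all these settings the median ran from -0.07 to 0.33 in LD against TAC and from 0.14 (equal sums) to 0.39 (library weights) in LD against sham. For the log2 ratio of Rpl3l to Rpl3, leaving out single libraries gave -0.72 to -0.28 in TAC against sham, -0.73 to -0.35 in LD against sham and -0.23 to 0.22 in LD against TAC. The last was also turned to 0.12 without TAC replicate 3 and LD replicate 3 together. Single genes turned as well. Leaving out single libraries gave, in LD against TAC, -1.45 to 0.34 for Rpl10a (0.34 without TAC replicate 2), -0.024 to 0.34 for Rpl3 (-0.006 without TAC replicate 3, -0.024 without LD replicate 2) and -0.033 to 0.27 for Rpl3l (-0.033 without TAC replicate 3). In LD against sham it gave -0.79 to 0.0088 for Rps10 (0.0088 without sham replicate 1) and -2.55 to 0.038 for Rps18 (0.038 without LD replicate 1). In LD against TAC, Rpl39 was 0.012 and Rpl3 -0.052 without TAC replicate 3 and LD replicate 3 together, and Rpl3l was -0.039 with GC correction, with or without the replicate block. The cause was not tested beyond the libraries left out.

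The replicate numbers did not pair the samples: deviations of same-numbered libraries correlated between -0.24 and 0.15, and the best match had the same number in 2 of 18 cases. With the replicate block the medians were 0.04, 0.18 and 0.23 in TAC against sham, LD against TAC and LD against sham. The low values of Rps18 in LD replicate 1 (80 fragments of 7.43 M) and of Rps28 in TAC replicate 3 (30 of 8.96 M) rest on few fragments. TAC replicate 1, with 8.40 M in all, held 2754 and 815 of these genes.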
